A study of Homo sapiens with 4 samples.

Results

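The regions described here are the H3K27ac peaks that were listed in the ovarian cancer line SKOV-3 and in none of 3 other cancer lines. They were chosen by their overlap: a SKOV-3 peak on an autosome is a member when no base of it lies in a peak of COLO-205, DU-145 or OVCAR-3. By this rule 2359 of the 13741 autosomal SKOV-3 peaks are SKOV-3-only (17.2%, exact Clopper-Pearson 95% interval 16.5% to 17.8%), and the 4 lists together hold 249029 autosomal peaks. Of the members, 162 are promoter peaks, with the summit within 1 kb of a protein-coding transcript start, and 2197 are distal. The other 11382 SKOV-3 peaks, called shared below, overlap a peak of 1 line in 2540 cases, of 2 lines in 3222 and of all 3 in 5620.

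The study looked for non-coding mutations that create binding sites in cancer cells, and profiled this mark to see which of them lie in active chromatin. The groups are established tumour lines, each grown in a medium with serum and with no treatment given in the labels: COLO-205 from colon, DU-145 from prostate, and OVCAR-3 and SKOV-3 from ovary. There was 1 ChIP-seq library per line, so no difference between lines can be set against replicate error, no test was possible, and every interval covers counting error only. A line is a single cell population, and line, tissue, medium and library cannot be told apart.

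The SKOV-3 list is the smallest of the 4. The others hold 74970 to 85053 autosomal peaks, and the share of peaks seen in 1 line alone was 59.0% to 74.8% there. The depth estimated from the peak values was 22.4 M tags in SKOV-3 and 29.8 to 36.05 M tags in the others. When each other list was cut to the size of the SKOV-3 list, the number of SKOV-3-only peaks was 4926. The promoters marked in SKOV-3 included KRT8, KRT18 and KRT19 of 6 epithelial markers, PAX8 of 4 ovarian carcinoma markers, and VIM, FN1 and ZEB1 of 4 mesenchymal markers. KRT7, EPCAM, CDH1, WT1, MUC16, MSLN and CDH2 had no promoter peak, and none of 4 colon, 2 prostate and 4 blood markers had one.

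Acetylation of lysine 27 on histone H3 marks active promoters and active enhancers. Promoters of widely used genes carry it in most cell types, whereas enhancers, which lie at a distance from the genes they act on, differ much more between cell types. SKOV-3 is a widely used ovarian carcinoma line that is known for a high level of the receptor tyrosine kinase ERBB2 and for mesenchymal features such as expression of ZEB1, a repressor that binds E-boxes. Copy number and gene expression were not measured here, and their part in the peaks was not tested.

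The sequences below are hg19 reference bases on the plus strand, 300 bases centred on the summit, and they show a strong member of each kind. Capitals mark matches to the motifs searched further below. The first is the strongest distal member outside chromosome 3, at chr6:11634403-11634702 (fold 17.2), in no annotated gene and nearest to TMEM170B. The second is the strongest promoter member, at chr19:19383885-19384184 in TM6SF2 (fold 14.9).
TMEM170B: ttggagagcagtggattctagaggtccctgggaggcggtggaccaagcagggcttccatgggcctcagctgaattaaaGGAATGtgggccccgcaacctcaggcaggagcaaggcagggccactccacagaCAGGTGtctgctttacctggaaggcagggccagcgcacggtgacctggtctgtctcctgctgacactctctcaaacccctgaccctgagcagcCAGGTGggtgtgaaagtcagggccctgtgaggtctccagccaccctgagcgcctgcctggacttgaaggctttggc
TM6SF2: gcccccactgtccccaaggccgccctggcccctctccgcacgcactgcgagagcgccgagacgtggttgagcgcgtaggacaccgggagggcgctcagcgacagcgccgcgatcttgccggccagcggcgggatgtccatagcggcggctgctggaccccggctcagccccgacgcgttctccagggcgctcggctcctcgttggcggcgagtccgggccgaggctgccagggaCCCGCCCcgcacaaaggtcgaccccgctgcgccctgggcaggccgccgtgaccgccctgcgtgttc
The TMEM170B window has a GC content of 61.3% with 5 CpG, 2 ZEB1 E-boxes and 1 TEAD match. The TM6SF2 window has a GC content of 75% with 40 CpG and 1 SP/KLF match.

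Promoters made up a small share of the SKOV-3-only peaks. The share was 6.87% (5.88% to 7.96%), against 60.2% (59.3% to 61.1%) of the shared SKOV-3 peaks. Put the other way, 2.31% of the SKOV-3 promoter peaks (1.97% to 2.69%) and 32.6% of the distal ones (31.5% to 33.8%) were SKOV-3-only. The peaks listed in 1 of the other lines alone were also mostly distal, with a promoter share of 5.05% in COLO-205, 6.94% in OVCAR-3 and 8.38% in DU-145. Under other settings the SKOV-3 share was as low as 4.71%, with promoters within 500 bp, and 15.8% with the other lists cut to the size of the SKOV-3 list, and the shares of the other lines were not recomputed under them. When transcript starts of every annotated gene were used in place of protein-coding ones, 16.02% of the members lay at a start.

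The summits of 45.9% of the distal members lay in an intron of a protein-coding gene, 35.9% in no annotated gene and 11.4% in an intron of a lncRNA gene. In the shared distal peaks these shares were 44.4%, 36.6% and 9.68%. Coding exons held 2.73% and UTR exons 1.91% of the distal members. Exons of lncRNA genes held 2.14% of them (1.58% to 2.83%), against 4.83% of the shared distal peaks (4.23% to 5.50%). The median distance from a distal member to the nearest protein-coding start was 28135 bp, against 19753 bp for a shared distal peak, and 82.2% of the distal members had a start within 100 kb. By the median, distal members therefore lay farther from a start, and fewer of them lay in lncRNA exons.

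The members were weaker than the shared peaks. The median −log10 q was 8.09 in the promoter members and 7.83 in the distal members, against 12.6 and 9.55 in the shared promoter and shared distal peaks. The median pileup at the summit was 23 tags in promoter members and 18 in distal members, against 37 and 25. The fold over the local background did not follow that order, with medians of 5.27 and 5.79 in the members and 5.05 and 5.50 in the shared peaks. The local background itself was lower at members, with a median of 3.58 tags at promoter members and 2.15 at distal ones, against 6.46 and 3.60. Members were also narrower, with median widths of 269.5 and 230 bp against 346 and 280 bp. A wider peak is more likely to share a base with another list, so the rule itself favours narrow members. A −log10 q of at least 10 was reached by 649 members (27.5%) and by 57.5% of the shared peaks, and 2 members exceeded 100, both near MECOM.

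**Figure D1:**
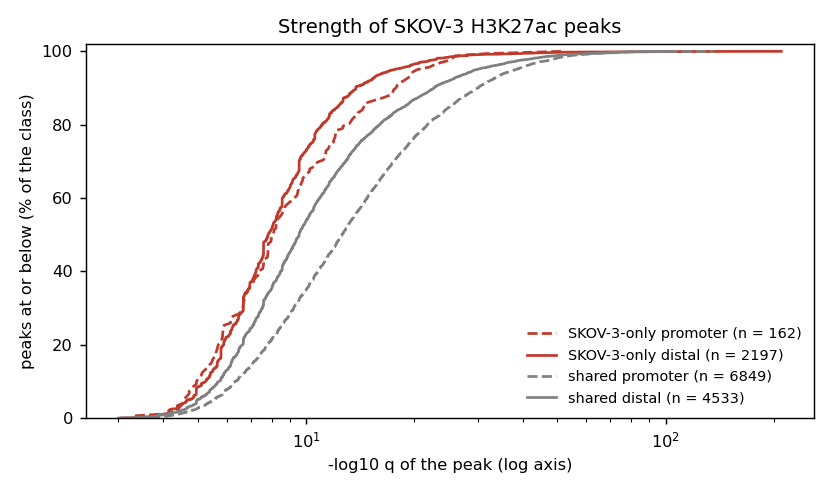
Cumulative share of SKOV-3 peaks (y axis, % of the class) at or below a −log10 q (x axis, log scale), for SKOV-3-only peaks in red and shared peaks in grey, promoter peaks dashed and distal peaks solid. The red curves lie left of the grey ones, with medians of 8.09 and 7.83 against 12.6 and 9.55, and a thin tail of distal members runs to 210.

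The median gap from a member to the nearest peak of any other line was 4164 bp. To the nearest peak of a single line it was 13956 bp for COLO-205, 16612 bp for OVCAR-3 and 18759 bp for DU-145. The gap to any line was at most 350 bp for 251 members (10.6%), at most 1 kb for 572 (24.2%) and at most 100 kb for 2279 (96.6%), and other positions of the genome were not measured for comparison. Of the promoter members, 34 (21.0%) lay within 350 bp of one. At the edge of the rule, the members at chr1:41362425-41362700 near CITED4 and chr6:160401019-160401210 in IGF2R touched an OVCAR-3 and a DU-145 peak without sharing a base, with folds of 5.94 and 4.94. Just outside it, the peaks at chr1:17615849-17616055 near PADI4 and chr12:33205501-33205746 near PKP2 shared 1 base with a DU-145 and a COLO-205 peak, with folds of 5.24 and 4.08. The −log10 q was 8.66 and 5.98 inside the edge and 5.56 and 5.00 outside it.

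The members were spread unevenly over the genome. Chromosomes 17, 19 and 12 held the most, with 2.54, 2.20 and 1.82 members per Mb, against a median of 0.751 over the 22 autosomes. On chromosome 12, 28.8% of the SKOV-3 peaks were members (25.8% to 31.98%), and on chromosome 17 22.4% (19.8% to 25.3%). On chromosome 19 the share was 15.4% (13.02% to 18.0%), below the 17.2% of the whole list, and the SKOV-3 list was dense there as a whole, with 14.3 peaks per Mb. Chromosome 6 held 214 members, or 26.8% of its SKOV-3 peaks (23.8% to 30.04%). Chromosomes 7, 13 and 4 held the fewest, with 0.0377, 0.0955 and 0.382 per Mb. On chromosome 7 the SKOV-3 list was short as a whole, with 65 peaks, or 0.408 per Mb, against 10.8 to 16.3 per Mb in the other lists. On chromosome 13 it had 1.28 per Mb, against 105 in COLO-205, 3.07 in OVCAR-3 and 2.16 in DU-145, and on chromosome 4 2.90 per Mb against 8.97 to 14.6. The few members of chromosome 7 are therefore drawn from a nearly empty list, and the cause of that was not tested.

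**Figure D2:**
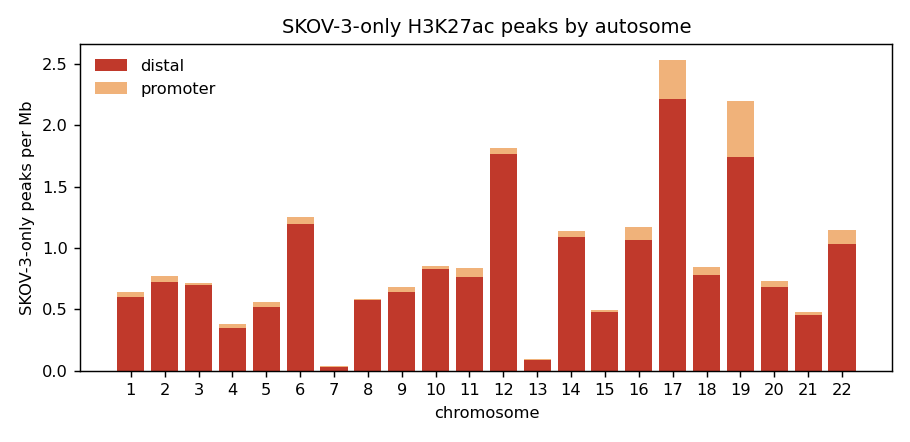
SKOV-3-only peaks per Mb (y axis) on each autosome (x axis), with distal peaks in red and promoter peaks in orange stacked on them. Chromosome 17 is highest at 2.54 per Mb and chromosome 7 lowest at 0.0377, and chromosome 19 has the largest promoter portion, with 27 promoter peaks of 130.

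The members were unevenly spaced. Joined over gaps of up to 10000 bp, 1315 of them (55.7%) stood alone, and 462 (19.6%) lay in 34 runs of at least 5. Of 2897 windows of 1 Mb, 754 held a member and 400 of these held 1, while 14 windows (0.483%) with at least 20 members each held 602 of the members (25.5%). The same windows held 3.57% of the shared SKOV-3 peaks. The 5 windows with the most members start at 37000001 on chromosome 17 (132 members), at 32000001 and 31000001 on chromosome 12 (101 and 50), at 73000001 on chromosome 14 (48) and at 13000001 on chromosome 3 (39). The shared peaks of these windows were also measured against the other lines, as a description, since the windows were picked for SKOV-3 peaks without a counterpart. The measure was the depth-scaled pileup of a SKOV-3 peak over that of the overlapping peaks of the other lines, on the log2 scale and centred on all shared peaks. Its median was 0.52 over 406 shared peaks in the 14 windows and −0.01 over 10972 elsewhere, where the middle 80% of peaks lay between −0.68 and 0.60. The median of single dense windows ran from 0.15, in the window of chromosome 16 that starts at 67000001, to 0.91. The measure used only the lines with an overlapping peak and was not centred by line, so windows were not all set against the same lines. The local background at members was 2.32 tags by the median in the 14 windows and 2.15 elsewhere.

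The largest cluster lay around ERBB2 on chromosome 17. In the window from 37000001 to 38000000, 132 of 201 SKOV-3 peaks were members (65.7%), 116 of them distal, and 126 of them fell into a run of 249 kb from 37673035 to 37922395 with no gap over 10000 bp. The count depends on how neighbouring peaks are treated: 76 members were left when peaks of every list under 350 bp apart were merged first, and 63 reached a −log10 q of 10. SKOV-3 peaks covered 11.9% of the window, against 5.40% in COLO-205, 5.63% in DU-145 and 1.19% in OVCAR-3. Sorted by the nearest start, 52 members belonged to NEUROD2, a neuronal transcription factor, 20 to ERBB2, 14 to STARD3, a cholesterol carrier of late endosomes, and 11 to CDK12, a kinase of the transcription machinery. PPP1R1B had 10, PGAP3, an enzyme of GPI anchor maturation, 9, IKZF3 6, GRB7, an adaptor that binds ERBB2, 4, and MIEN1 3. Members thus ran across several genes rather than sitting at a single one. The median pileup ratio of the 69 shared peaks in the window was 0.76 on the log2 scale, which ranked 5 of the 788 windows with at least 5 such peaks. Of the other dense windows, that of chromosome 18 from 56000001 ranked 3 and that of chromosome 19 from 53000001 ranked 4, while the rank was 48 for the one of chromosome 12 that starts at 31000001, 62 for that of chromosome 14 at 73000001, 105 for that of chromosome 9 at 36000001 and 233 for that of chromosome 16 at 67000001. A window without a member, on chromosome 6 from 149000001, ranked 7.

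At ERBB2 itself, 20 of the 29 SKOV-3 peaks nearest to its starts were members, and 5 of its 11 promoter peaks. The strongest of these members was distal, at chr17:37875680-37876792 with its summit 2.371 kb past an internal start (fold 9.65, −log10 q 28.0, 44 tags). The promoter member at chr17:37855348-37855753 had a fold of 9.45 and a −log10 q of 25.9, with 41 tags (95% Poisson interval 29.4 to 55.6), and lay 166 bp from the nearest peak of another line. The weakest member had a −log10 q of 5.50. The strongest ERBB2 promoter peaks are not members. Those at chr17:37855919-37858714 and chr17:37843748-37844596 overlapped peaks of all 3 other lines and had a −log10 q of 136 and 135, with 151 and 149 tags. The other 7 shared peaks nearest to ERBB2 overlapped a peak of 1 line each, with a −log10 q of 15.3 to 34.6, a range that overlaps that of the members.

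**Figure D3:**
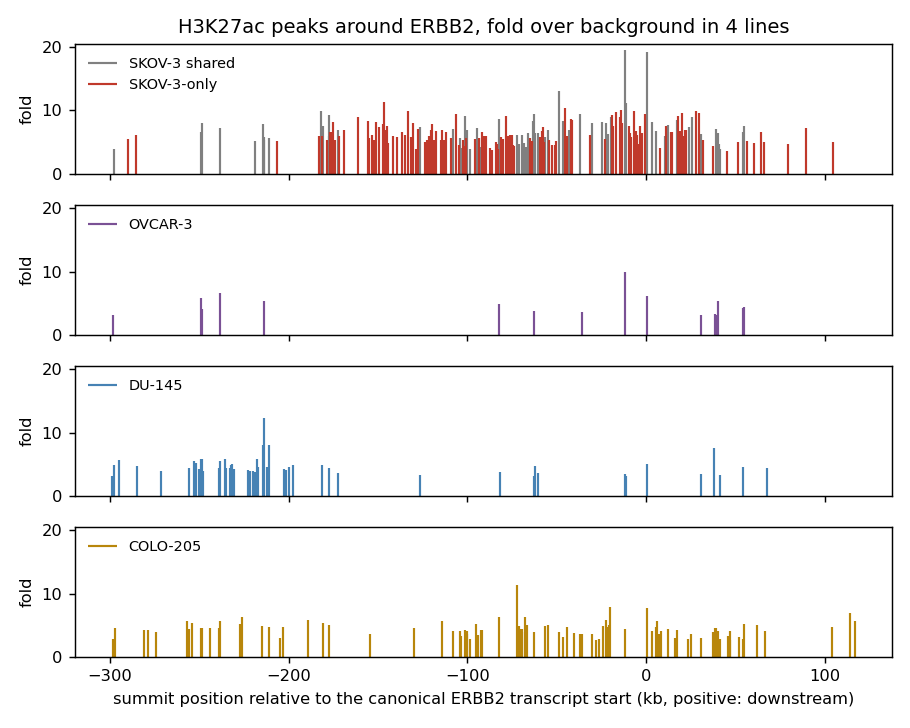
Fold over background (y axis) of each H3K27ac peak against the distance of its summit from the canonical ERBB2 start (x axis, kb) in the 4 lines, with SKOV-3-only peaks in red and shared SKOV-3 peaks in grey. Red lines fill most of the stretch upstream of and around the start, and the 2 highest SKOV-3 peaks, at folds of 19.3 and 19.5, are grey.

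The strongest members lay beyond the 3′ end of MECOM on chromosome 3. MECOM encodes a zinc finger transcription factor of blood stem cells that is often gained in ovarian carcinoma. The 1-Mb window from 168000001 held 38 members among 45 SKOV-3 peaks (84.4%), all distal, and 32 of them formed a run of 122 kb from 168606993 to 168728637. Of the 15 strongest distal members of the whole set, 11 are in this window. The highest 5 had folds of 55.2, 35.5, 28.7, 24.8 and 22.7, with pileups of 142, 95, 81, 71 and 64 tags, and lay 119 to 176 kb from the nearest MECOM start at 168845822. The widest member of all spanned 8651 bp, and the 6 members of at least 1000 bp in the window covered 30219 bp between 168696513 and 168728170. None of the 38 had its summit in MECOM: 27 lay in no annotated gene and 11 in the lncRNA genes LINC02082 and LINC01997. In the other lists this window had 24 peaks in OVCAR-3, 5 in COLO-205 and 1 in DU-145.

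All 7 shared SKOV-3 peaks of the MECOM window overlapped an OVCAR-3 peak. The strongest, at chr3:168682421-168682858 and chr3:168684797-168685281, lay inside the run of members with folds of 17.4 and 16.97. Their −log10 q of 42.8 and 41.4 lay within the range of the members, whose highest was 210. The median log2 pileup ratio of these 7 peaks was 0.91, which ranked 1 of the 788 windows. Other than the peak at chr3:168864012-168864472, these peaks overlapped no further line, so the ratio was set mostly against OVCAR-3. When the OVCAR-3 list was not used, the window held 44 members, and it held 38 without either of the other lists.

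**Figure D4:**
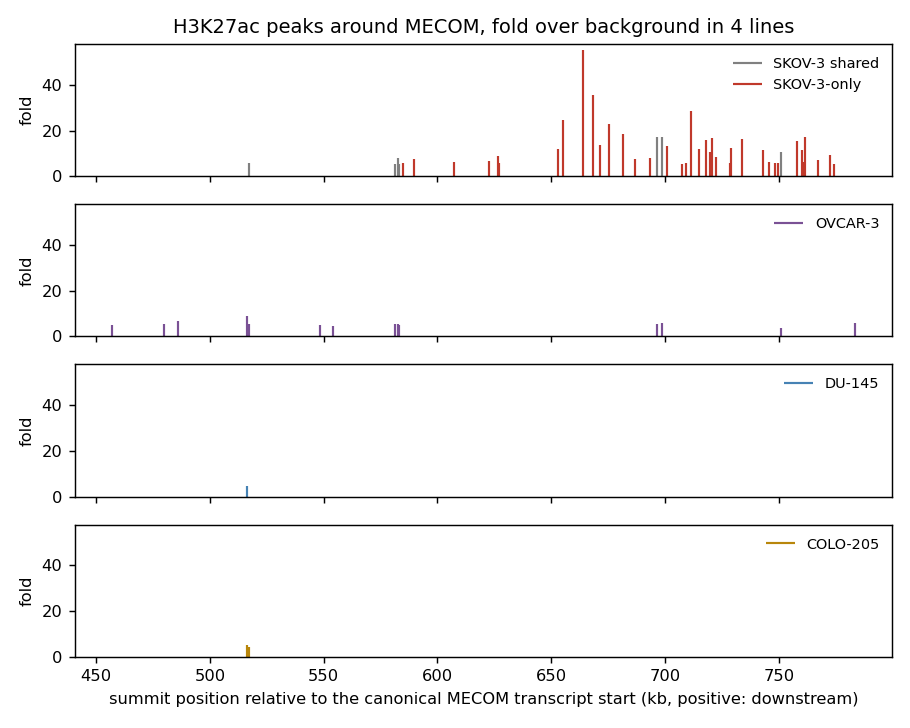
Fold over background (y axis) of each H3K27ac peak past the MECOM gene against the distance of its summit from the canonical MECOM start (x axis, kb downstream) in the 4 lines. SKOV-3-only peaks, in red, form a dense run to the right that reaches a fold of 55.2, and the other lines have few peaks or none there.

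Outside these windows, the genes with the most members were spread over chromosomes 3, 6, 12, 14 and 18. A single gene held most members in some dense windows and not in others. The members of chromosome 12 from 31000001 belonged to AMN1 and DENND5B with 13 each, H3-5 with 11 and further genes with fewer, and on chromosome 19 from 53000001 no gene had more than 5 of the 24 members. TMEM170B on chromosome 6 had 21 members, 49.266 to 97.07 kb from its start, with 1 shared peak, and together with ADTRP its window held 32 members of 36 SKOV-3 peaks. The strongest of them had a fold of 17.2 and a −log10 q of 52.5. FBLN2, which encodes an extracellular matrix fibulin, had 30 members and 4 shared peaks, and its strongest member reached a fold of 13.1 and a −log10 q of 28.0. On chromosome 12, RESF1, a factor that silences retroelements, had 27 members with a highest fold of 12.9. BICD1, a dynein adaptor, had 23 within 100 kb of a start, or 24 in its window without that limit. DNM1L, the GTPase of mitochondrial fission, had 20. PAPLN, which encodes the matrix protein papilin, had 25 members on chromosome 14 beside 21 shared peaks, the inositol phosphatase gene SYNJ2 had 19 on chromosome 6, and ZNF532 had 18 on chromosome 18. Within these genes the median −log10 q of the members ran from 7.78 at ZNF532 to 11.6 at TMEM170B, against 7.83 over all distal members.

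The promoter members reached 141 of 18886 protein-coding genes (0.747%). For 66 of these genes SKOV-3 also had a shared promoter peak. For 52 no other line had a peak summit within 1 kb of any of the gene's starts, though a peak with its summit farther away could still reach them. The 15 strongest promoter members had a −log10 q between 18.1 and 51.5 and lay at 13 genes. TM6SF2, which acts in lipid export from the liver, led with a fold of 14.9 and 62 tags (47.5 to 79.5), with its summit 75 bp from the start. ZSCAN1 followed with a fold of 12.7 and 40 tags (28.6 to 54.5). TIGD7, MIEN1, ZNF135, CYP27C1, a retinoid-converting cytochrome P450, SALL1, a developmental zinc finger factor, KLHDC7A, ZNF320, HAPLN4, a link protein of the extracellular matrix, PGAP3 and NRP1, a coreceptor of semaphorins and VEGF, had folds between 6.97 and 9.53. Of these 15 peaks, 5 lay on chromosome 19 and 5 in the ERBB2 window.

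The genes in the following groups were picked after their values were seen, and no background share was fixed for them except for the zinc finger genes. Zinc finger genes, by the symbols ZNF, ZSCAN and ZKSCAN, made up 24 of the 141 genes, which is 4.53% of 530 such genes against 0.747% of all genes, and 20 of the 24 are on chromosome 19. In 15 of them no other line had a promoter peak. Among the 52 genes without a promoter peak in another line were the transcription factor genes ESR1, FOXF2, TBX1, TBX15, IRX5, RUNX2, TWIST1, HOXD9 and HOXD13. ESR1, the oestrogen receptor alpha gene, had 2 of them, at chr6:152130090-152130683 and chr6:152128525-152129878, with folds of 7.37 and 6.16 and a −log10 q of 14.6 and 14.5, and the nearest peak of another line was 91.131 kb away from the first. The others were weaker, with a −log10 q of 9.09 at TBX15, 8.78 at FOXF2, 7.13 at HOXD13 and 5.28 at IRX5. In the HOXB cluster, whose genes pattern the body axis, 16 members lay beside 31 shared peaks, with a highest fold of 7.15, and in the HOXD cluster 4 members lay beside 2 shared peaks. The HOXA and HOXC clusters held no member, and SKOV-3 had only 2 and 0 shared peaks there.

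Genes of the mesenchymal state were among those with members. A distal member within 100 kb had a given gene as its nearest one for 923 of the 18886 protein-coding genes (4.89%). In the list of 43 mesenchymal genes this was so for 8 (18.6%), among them CD44, COL3A1, COL5A1, COL6A1, NT5E, SPARC and TWIST2, and 4 (9.30%) had a promoter member, COL5A1, FN1, TAGLN and TWIST1, beside 0.747% of all genes. Of 30 epithelial genes, 2 were nearest to a distal member (6.67%), the adhesion molecule EPCAM and the tight junction gene MARVELD2, and none had a promoter member. With distal members of a −log10 q of at least 10 alone, the counts were 5 mesenchymal and 0 epithelial genes, beside 248 of all genes (1.31%). These lists were chosen with earlier results known, and the shares are counts beside the background, not tests.

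Among the mesenchymal genes, COL5A1, a chain of type V collagen, had the most, with 6 members. Its strongest, at chr9:137562638-137563212 in an intron, had a fold of 10.1 and a −log10 q of 23.2, and its promoter member a fold of 5.31. TWIST2, a basic helix-loop-helix factor of mesenchyme, had 3 members 79.3 to 81.6 kb from its start, of which the strongest had a fold of 9.05 and a −log10 q of 20.2. SPARC, a matricellular protein, had a member in a coding exon with a fold of 6.22, COL3A1 one with 6.98 and NT5E, the ectonucleotidase CD73, 2 with 6.38 and 6.94. The promoter members had a −log10 q of 8.24 at COL5A1, 6.17 at the fibronectin gene FN1, 5.61 at TWIST1 and 4.56 at TAGLN. The TWIST1 peak is 1 of the 6 members on chromosome 7.

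In the ERBB signalling list, ERBB2 and GRB7 had both kinds of member (6.90% of the list, beside 4.89% of all genes for distal and 0.747% for promoter members) and no other gene of the 29 had any. GRB7 had 4, the strongest with a −log10 q of 9.37. Both genes lie in the dense window of chromosome 17. Without the 14 dense windows, 0 genes of the ERBB list were nearest to a distal member, and with a −log10 q of at least 10 the count was 1. For 23 Mullerian and ovarian carcinoma genes on the autosomes, MECOM was the only one nearest to a distal member and ESR1 the only one with a promoter member, which is 4.35% of the list for each kind. PAX8 and WT1 had neither. MECOM counts here through 7 members within 100 kb, with −log10 q from 6.57 to 14.8, and its stronger members lie beyond that distance. Of 34 TGF-beta and BMP genes, 3 were nearest to a distal member (8.82%, beside 4.89% of all genes), ID1, SMAD2 and SMAD7, and of 26 YAP and TEAD genes 3 were (11.5%), the tissue factor gene F3, NF2 and VGLL4. F3 had 6 members, 5 of them 57.7 to 83.2 kb upstream, with a fold of up to 10.4 and a −log10 q of up to 19.4. Of 25 NF-kB and inflammatory genes, 3 were nearest to a distal member (12.0%), CSF1 with 4, CSF3 and IL15. With a −log10 q of at least 10, each of these 3 lists had a count of 1 (beside 1.31% of all genes), and without a limit of distance the TGF-beta and BMP list reached 5. For comparison, 4 of 79 ribosomal protein genes (5.06%) and 2 of 380 olfactory receptor genes (0.526%) were.

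ZEB1 had no member. SKOV-3 had 3 promoter peaks at ZEB1 on chromosome 10, all shared with another line, with a −log10 q of up to 34.0, and the nearest member was 146.187 kb from a ZEB1 start. COLO-205, DU-145 and OVCAR-3 had 1, 2 and 1 promoter peaks there.

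Sequence content was examined in the 300 bases around each summit. The median GC content was 54.0% in distal members and 57.0% in shared distal peaks, 59.3% in promoter members and 70.7% in shared promoter peaks, and 40% in 89487 windows of the same length spaced over the genome. Promoter members had a median of 13 CpG, against 31 in shared promoter peaks, and distal members 6 against 7. Members were thus poorer in GC than shared peaks of their kind, most so at promoters, and richer than the genome.

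Short motifs were searched on both strands, and matches of different motifs were allowed to overlap. The letters were TGANTCA for AP-1, GGAATG for TEAD factors, CCGGAAG for ETS factors and TGTGGTT for RUNX factors. The E-boxes were CAGGTG, the kind bound by ZEB1, and CACGTG, the kind bound by MYC. Lineage factors were searched as AGATAAG for the GATA family, TGTTTAC for the FOX family and ACAATGG for the SOX family. Promoter factors were searched as GGGCGGG for the SP and KLF family (SP/KLF), GCGTGGG for EGR, CCAATCA for NFY and TGACGTCA for the CRE. Factors of stress and inflammation were searched as TTGCNNAA for CEBP, GGGANTTCC for NF-kB and TTCCNGGAA for STAT. A match is a description of the bases and not a binding site. In 13 of the 16 the intervals of distal members and shared distal peaks overlapped. The E-box CAGGTG, which ZEB1 and related factors bind, was found in 46.2% of distal members (44.1% to 48.4%) and in 36.9% of shared distal peaks (35.5% to 38.3%), against 21.3% of genome windows. The GC-rich SP/KLF motif went the other way, with 4.19% (3.39% to 5.11%) against 11.2% (10.3% to 12.1%), and so did EGR, with 2.46% against 4.59%. AP-1 was found in 6.55% of distal members (5.56% to 7.67%), 7.10% of shared distal peaks and 9.43% of genome windows. TEAD matches were found in 13.8%, 16.02% and 15.4%, respectively.

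The higher E-box share was not particular to SKOV-3. The distal peaks listed in 1 other line alone held that E-box in 44.2% (COLO-205), 46.8% (OVCAR-3) and 47.8% (DU-145). A stretch of 9 bases that recurs in Alu elements, CTGTAATCC, was added after the data were seen. It was found in 25.9% of distal members (24.1% to 27.8%), 15.5% of shared distal peaks (14.5% to 16.6%) and 8.17% of genome windows, and in 23.1% to 33.6% of the other lines' own distal peaks. In the 14 dense windows it was found in 37.8% of distal members, and in the windows of chromosome 12 that start at 32000001 and 31000001 in 63.4% and 58% of all members. Of the distal members with both, 135 of 358 had an E-box that shares bases with the stretch. Among distal peaks without it, the E-box share was 40.4% in members (38.0% to 42.9%) and 33.2% in shared peaks (31.8% to 34.8%). The stretch is a short proxy and no repeat annotation was used. Windows without it, and E-boxes apart from it, can therefore still lie in an Alu element. The part of repeats in the peaks was not tested.

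**Figure D5:**
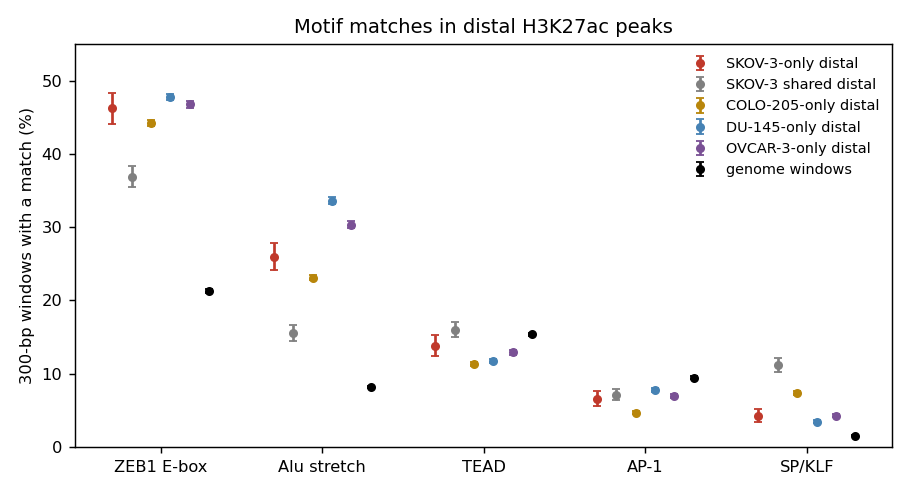
Share of 300-bp windows with a match (y axis, %) for 5 motifs (x axis) in distal peaks of SKOV-3, distal peaks of 1 other line alone and genome windows, with exact 95% intervals as bars. SKOV-3-only distal peaks, in red, lie at 46.2% for the E-box, close to the other lines' own peaks and above the shared SKOV-3 peaks at 36.9%.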

How the data were processed

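H3K27ac was profiled by ChIP-seq, with antibody ab4729 and 1 library per line, in SKOV-3, OVCAR-3, DU-145 and COLO-205. The authors mapped reads to hg19 with Bowtie2 2.1.0 and called narrow peaks per library with MACS2 2.1.0.20150603 at a q-value under 0.001. Each deposited peak carries a score, which is 10 times the −log10 q as a whole number. The deposited fold is the enrichment of the summit pileup over the local background. The deposited −log10 p and −log10 q come from the same caller, and none of these values was adjusted across libraries. Merging of peaks under 350 bp apart is given in the methods. The deposited lists hold closer neighbours, so they were used unmerged, with merging as an alternative.

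The pileup and background in tags were recovered from the fold and the −log10 p (tolerance 0.001), and the depth of each library from the lowest background, the smallest width and 2700000000 genome positions. This step, the overlap and the motif search were tested on simulated data. Promoters, gene distances (limit 100 kb) and places came from GENCODE release 44 lifted to GRCh37. Windows of 1 Mb, runs joined over gaps of up to 10000 bp and genome windows every 30000 bp were used. Sequences were read from GRCh37 with pysam 0.24.0, and intervals are exact Clopper-Pearson or Poisson 95% intervals from scipy 1.17.1, which cover counting error only. Chromosomes X and Y were left out. With 1 library per line no test was made.

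The text names the 15 promoter and 15 distal members with the highest −log10 q, the 10 genes and 5 windows with the most members, the 3 autosomes at each end, list genes with a member, and 2 peaks on each side of the edge. The members, gene lists and motifs were chosen with earlier results of these data known. The Alu stretch, the windows with at least 20 members, the runs, the gene families, the HOX clusters and the chromosome 7 members were added after the data were seen. Alternatives changed the overlap rule, the −log10 q limit, the lists used, the promoter distance, the sequence window and the gene distance. Some items of the lists and sequence sets are not reported here.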

Additional observations from a re-analysis of the deposited data

How the results depend on the processing

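Of the main values under all alternatives, 26 stayed within their counting interval or within 1.5 times the count, and 21 moved. The number of SKOV-3-only peaks (2359) was 649 at a −log10 q of at least 10 and 4926 with each other list cut to the size of the SKOV-3 list. The promoter share (6.87%) was 7.98% when a peak of another line had to cover 50% of the SKOV-3 peak, 8.47% at a −log10 q of at least 10, 15.8% with the lists cut, 10.4% without the DU-145 list and 10.2% without the OVCAR-3 list. It was 4.71% with promoters within 500 bp, 10.6% within 2000 bp and 16.02% with the starts of every annotated gene. At a −log10 q of at least 10, 48 genes had a promoter member (141) and 11 list genes were nearest to a distal member (28). The AP-1 share (6.55%) was 3.69% in 200-bp windows and 5.55% in whole peaks. The E-box share (46.2%) was 35.7% in 200-bp windows, 42.9% in whole peaks, 40.7% at a −log10 q of at least 10 and 40.4% without members that hold the Alu stretch. It stayed above the share of shared distal peaks under all 6 alternatives, by 3.72 to 8.94 points. The median GC content (54%) was 55% in 200-bp windows, 54.3% without the 14 densest windows and 55.3% without the Alu stretch. In the ERBB2 window 63 of the 132 members reached a −log10 q of 10, and 76 were left after merging. Leaving out the 14 windows or the Alu stretch was chosen after seeing the data. No paired analysis was possible because each line had 1 library and no replicate numbers.

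The peak lists hold only what passed the caller's threshold, so a region missing from a list is not shown to lack the mark. How the members depend on sequencing depth was not tested, and no control for copy number was used.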
